A study of Mus musculus with 6 samples.

Results

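The interferon response genes studied here were 42 genes picked by symbol: the receptors for type I and type II interferon, the interferon regulatory factors with STAT2, and interferon-stimulated genes. Of these, 41 were among the 22800 symbols of the expression tables, and Ifit3 was not analysed here. In cultured mouse oviductal epithelial cells, 28 of the 41 were expressed well enough to be tested between early and late passages. Late passages had lower RNA of 19 of them and higher RNA of 2, Irf1 and Isg20. Of all 11621 tested genes, 32.1% were lower and 24.3% higher. Of the 19, 7 were expressed well enough only in the early passages and so had to be lower. Among the other 21 tested members, 12 were lower, beside 2928 of 10781 tested genes held to the same late-passage level.

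Interferons are secreted proteins that warn neighbouring cells of a virus. Type I interferon binds IFNAR1 with IFNAR2, and type II interferon binds IFNGR1 with IFNGR2. The receptors signal through Janus kinases to STAT proteins, and STAT2 and IRF9 take part in the complex that binds interferon-stimulated response elements (ISRE) in the promoters of antiviral genes. Most of those genes are also transcribed at a low basal level in unstimulated cells, and many encode proteins that sense, block or destroy viral RNA.

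The cells came from 1 line, pooled from several oviducts of 8-week-old outbred CD1 females, and no interferon or virus is named in the protocols. MOELOW cells were taken at passages 8, 9 and 10, and MOEHIGH cells were the same line at passages 90, 103 and 113 after continuous passaging in the same growth medium, which contained serum, insulin, transferrin, a growth factor and estradiol. The methods describe the line as negative for Mycoplasma. Each passage gave 1 library of ribosome-depleted total RNA, so there were 3 libraries a group, drawn from successive cultures of a single line. The p-values therefore measure the spread between passages and not between animals or lines. Throughout, per-library values are given in the order of passages 8, 9 and 10 and then 90, 103 and 113.

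Values were fragment numbers scaled for transcript length and library size (FPKM). They are relative measures, and their totals differed between libraries. Summed FPKM ran from 624733 to 683841 in MOELOW and from 597161 to 770438 in MOEHIGH. The number of reads is unknown, but the FPKM value of 1 fragment was 0.21 to 0.35 lower on the log2 scale in MOEHIGH libraries than at passage 8, so MOEHIGH libraries were not the shallower ones. Genes at 1 FPKM or more numbered 10888 to 10987 in MOELOW and 10208 to 10292 in MOEHIGH. The labels call the cells epithelial, and the keratin genes Krt18 (779 to 2370 FPKM) and Krt19 (553 to 967 FPKM) and the Müllerian transcription factor gene Pax8 (41.0 to 54.4 FPKM) were high in all 6 libraries. The epithelial adhesion genes were not: Epcam was at most 0.0399 FPKM and Cdh1, the E-cadherin gene, at most 0.0821 FPKM. In bulk RNA, fewer cells of a type and less RNA per cell cannot be told apart.

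The promoter sequences show what many of the members share and where it lies. RefSeq windows of GRCm38.p6, from 250 bases before to 50 bases after a transcript start, were found for 34 of the 41 members. The core of the ISRE, searched as GAAANNGAAA on both strands, stood in the windows of 14 members (41.2%), against 3.99% of all 27025 genes with a window. The stretches below are examples and not all that were found. They are from 4 members with little or no RNA in MOEHIGH (Isg15, Ifit1, Gbp2 and Rsad2) and from Bst2 and Stat2. Bst2 and Stat2 did not pass the test, and Rsad2 was too low for it. Isg15, Ifit1 and Gbp2 were expressed well enough only in the early passages. Each stretch is written along the strand of its gene, with the ISRE cores in capitals. These read TTTCNNTTTC where the core lies on the opposite strand. The first core begins 78 bases before the start of Isg15, 104 before Ifit1, 59 before Gbp2 and 120 before Rsad2. It begins 130 before Bst2 and 222 before Stat2, and overlapping cores in Isg15 and Bst2 merge into 1 run of capitals. Of the 41 windows of members, 39 held the first bases of a GENCODE transcript. The Stat2 window did not, so its distance is less certain.
Isg15, chr4:156200855-156200916, minus strand: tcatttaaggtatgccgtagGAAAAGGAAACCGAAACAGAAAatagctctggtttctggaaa
Ifit1, chr19:34640765-34640833, plus strand: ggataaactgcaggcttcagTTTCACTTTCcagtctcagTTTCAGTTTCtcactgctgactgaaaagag
Gbp2, chr3:142620584-142620633, plus strand: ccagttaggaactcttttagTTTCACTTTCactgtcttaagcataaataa
Rsad2, chr12:26456543-26456592, minus strand: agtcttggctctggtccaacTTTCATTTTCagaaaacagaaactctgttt
Bst2, chr8:71537567-71537622, minus strand: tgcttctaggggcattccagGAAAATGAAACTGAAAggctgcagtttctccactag
Stat2, chr10:128270256-128270305, plus strand: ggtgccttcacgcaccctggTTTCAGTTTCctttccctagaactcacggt

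The members spanned more than 3 orders of magnitude. At the top stood the membrane proteins Ifitm2 and Ifitm3, whose MOELOW means were 385 and 213 FPKM. A broad middle group held the 4 receptors, Bst2, Irf1, Irf2, Irf3 and the effectors Eif2ak2, Ifit2, Isg20, Parp12 and Ifi35. Of the 41 members, 19 had a MOELOW mean of at least 5 FPKM, while 15 had means below 1 FPKM in both groups. The plot of all members by library shows these levels.

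**Figure D1:**
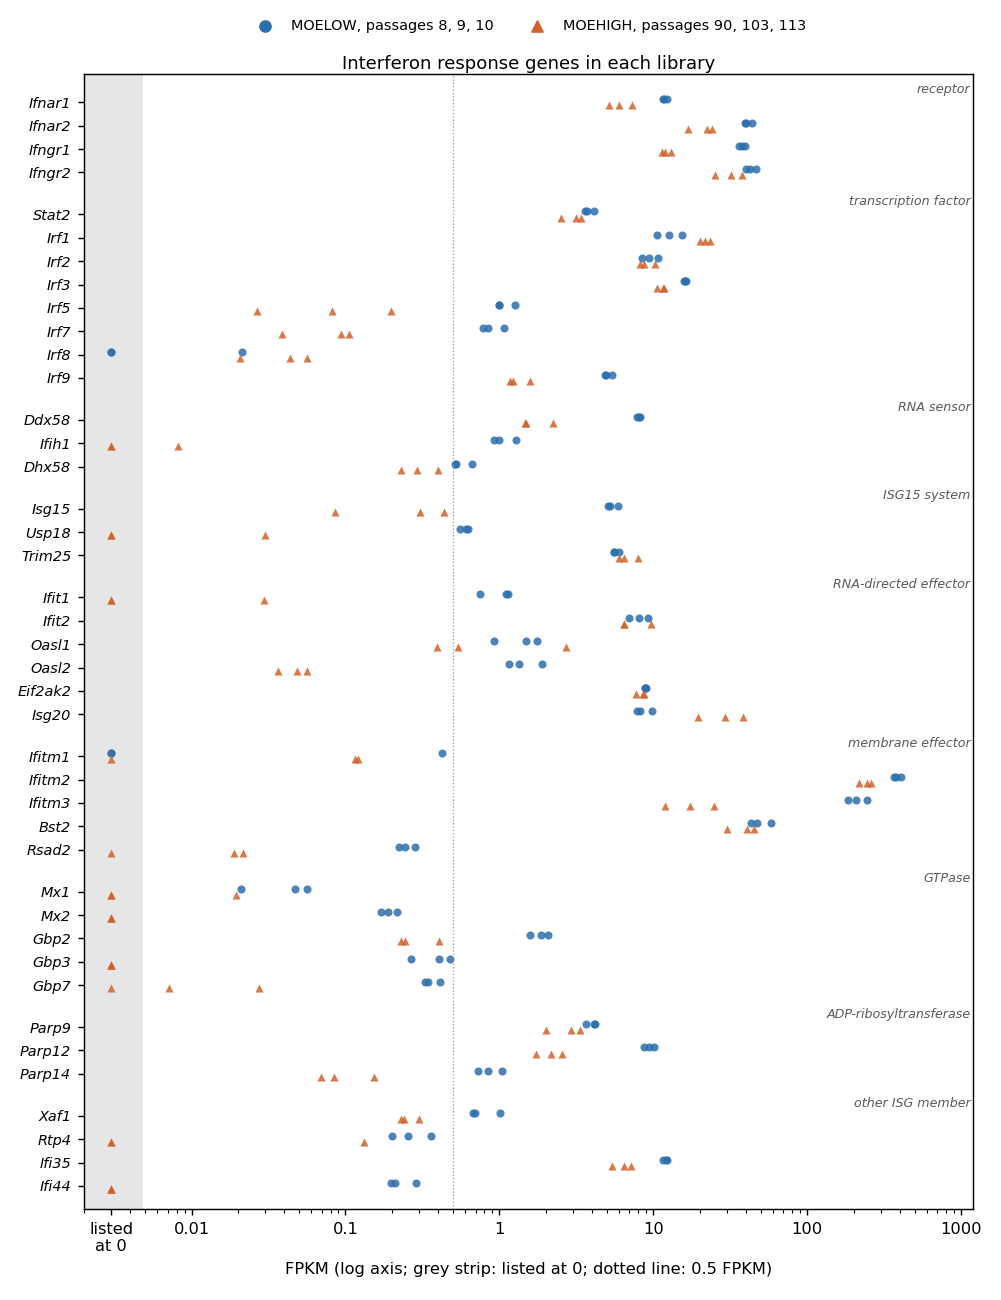
FPKM of 41 interferon response genes in each library on a log axis, grouped by role, with blue circles for MOELOW (passages 8, 9 and 10) and orange triangles for MOEHIGH (passages 90, 103 and 113). The grey strip holds libraries in which a gene was listed at 0, and the dotted line marks 0.5 FPKM. In most rows the triangles lie to the left of the circles, and for Irf1, Trim25 and Isg20 they lie to the right.

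Differences between MOEHIGH and MOELOW were tested by limma on a log2(FPKM + 1) scale. The fit took in the 11621 genes whose mean reached 0.5 FPKM, and a gene was called at a Benjamini-Hochberg adjusted p under 0.05 over all of them. A log2 difference on this scale understates the change of low genes. Of the 28 members tested, 2 were called higher in MOEHIGH, 19 were called lower and 7 were not called. The median difference of the tested members was -0.76, beside -0.05 for all tested genes. With quantile normalization 3 members were higher and 17 lower, while the split over all tested genes turned from 2826 higher and 3734 lower to 3970 higher and 3123 lower, and the median of all tested genes moved to 0.10. In a test against a 2-fold change, 6 members were lower (Ifngr1, Irf9, Ddx58, Isg15, Ifitm3 and Parp12) and none was higher, beside 7.8% of all tested genes called lower.

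Low members need care in these counts, because 7 of those called lower (Isg15, Ifit1, Ifih1, Irf5, Oasl2, Gbp2 and Xaf1) passed the filter only through MOELOW and so had to differ. Among the 21 tested members with a MOEHIGH mean of at least 0.5 FPKM, 2 were higher, 12 were lower and 7 were not called, with a median difference of -0.44. All tested genes with that MOEHIGH mean numbered 10781, of which 2826 were higher and 2928 lower, with a median of 0.00. Without any filter, all 41 members could be tested: 2 were higher, 27 lower and 12 not called. In that fit 2907 of 16525 genes were called higher and 27.4% lower. All 3 MOEHIGH libraries lay below all 3 MOELOW libraries for 21 of the 28 tested members and for 35.5% of all tested genes. Those members include all 7 that passed the filter only through MOELOW. The MOEHIGH libraries lay above for Irf1, Trim25 and Isg20, and for 3316 of all 11621 tested genes. The groups overlapped for Irf2, Ifit2, Oasl1 and Bst2, and for 4184 of all tested genes.

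**Figure D2:**
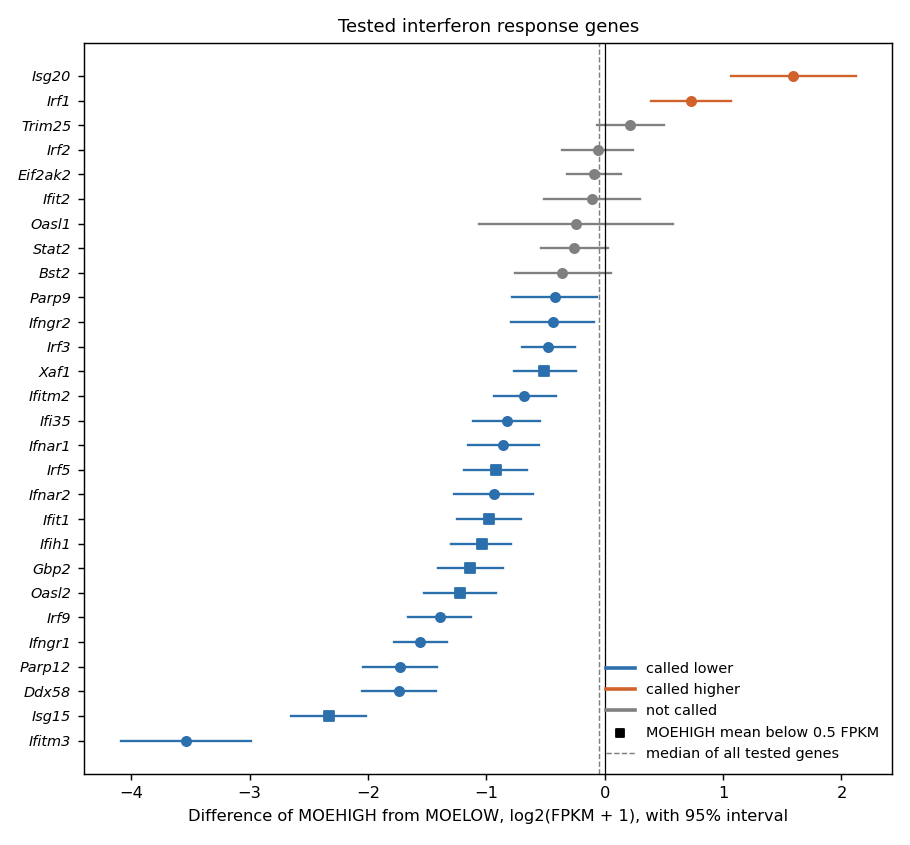
Difference of MOEHIGH from MOELOW in log2(FPKM + 1) for each of the 28 tested members, with its 95% interval from limma. Blue marks genes called lower, orange genes called higher and grey genes not called, squares mark members with a MOEHIGH mean under 0.5 FPKM, and the dashed line is the median of all tested genes. Values run from -3.54 for Ifitm3 to 1.59 for Isg20.

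RNA of all 4 receptor subunits was lower in MOEHIGH. Ifngr1, the ligand-binding chain for type II interferon on chromosome 10, read 39.3, 36.1 and 37.6 FPKM in MOELOW and 13.1, 12.0 and 11.4 FPKM in MOEHIGH. The libraries of each group lay close together and far from the other group, and Ifngr1 fell by 1.56 on the log2 scale (standard error 0.10, adjusted p = 8.4e-06 from limma). Its partner chain Ifngr2 read 46.7, 42.4 and 39.8 FPKM and then 25.3, 37.6 and 31.9 FPKM. Here the passage 103 library came close to the lowest MOELOW library, and the difference was -0.44 (standard error 0.15, adjusted p = 0.036 from limma). The call on Ifngr2 was the weaker of the pair: leaving out the library of passage 8, 9, 10 or 90 gave adjusted p-values of 0.12, 0.090, 0.059 and 0.085 in limma.

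Both chains of the type I receptor fell. Ifnar1 read 11.8, 11.5 and 12.3 FPKM and then 5.18, 5.98 and 7.26 FPKM, a mean 1.93 times higher in MOELOW (difference -0.86, standard error 0.13, adjusted p = 0.00083 from limma). Ifnar2 read 43.7, 39.8 and 39.6 FPKM and then 22.5, 24.0 and 16.8 FPKM, a mean 1.94 times higher in MOELOW (difference -0.94, standard error 0.14, adjusted p = 0.00084 from limma). Neither gene had overlapping groups. Ifnar2, Ifnar1 and Ifngr2 are neighbours on chromosome 16, from 91372783 to 91564007 of GRCm38.p6, and the median difference of the 368 tested genes of that chromosome was -0.13.

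Transcription factor genes went in both directions. Irf9, the DNA-binding subunit of the complex with STAT2, read 4.85, 5.43 and 4.96 FPKM in MOELOW and 1.17, 1.22 and 1.57 FPKM in MOEHIGH, and fell by 1.39 on the log2 scale (standard error 0.12, adjusted p = 3.4e-05 from limma). Stat2 read 3.61, 3.69 and 4.09 FPKM and then 2.51, 3.40 and 3.17 FPKM. All MOEHIGH values of Stat2 were below all MOELOW values, yet its difference of -0.26 was not called (95% interval -0.54 to 0.03, adjusted p = 0.11 from limma).

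Among the interferon regulatory factors, Irf1 was the one that rose. Irf1 encodes an activator induced by type II interferon and by other inflammatory signals, and read 10.5, 12.7 and 15.4 FPKM in MOELOW and 20.2, 23.4 and 21.6 FPKM in MOEHIGH. It rose by 0.73 (standard error 0.15, adjusted p = 0.0037 from limma) on the log2 scale, and every MOEHIGH library was above every MOELOW library. Irf2, which binds the same DNA sites and can repress them, was level at 9.50 ± 1.12 FPKM (SD, n = 3) and 9.08 ± 1.10 FPKM, with overlapping groups and a difference of -0.06 (95% interval -0.36 to 0.24). Irf3, the latent factor activated by viral RNA sensing, fell from 16.1 ± 0.294 to 11.3 ± 0.668 FPKM (difference -0.48, standard error 0.10, adjusted p = 0.0038 from limma). Irf7, which amplifies type I interferon production, was too low for the main test, at 0.786, 1.07 and 0.845 FPKM and then 0.106, 0.0387 and 0.0931 FPKM. Irf5 had a like pattern, with 1.27, 0.996 and 0.997 FPKM in MOELOW and 0.0265, 0.198 and 0.0818 FPKM in MOEHIGH. Both had means more than 10 times higher in MOELOW, Irf5 by 10.7 and Irf7 by 11.3. In the fit without a filter the difference of Irf7 was -0.81 and that of Irf5 -0.92 (adjusted p = 0.00018 and 0.00027 from limma). Irf8, a factor of myeloid and lymphoid cells, was at or near 0 in every library, with a highest value of 0.0565 FPKM.

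Both tested sensors of cytoplasmic viral RNA were lower in MOEHIGH, beside 32.1% of all tested genes. Of the pair, Ifih1 passed the filter only through MOELOW and so had to be lower. Ddx58 encodes RIG-I, which recognises the ends of viral RNA, and read 7.84, 8.10 and 8.21 FPKM and then 1.47, 1.5 and 2.23 FPKM. It fell by 1.74 on the log2 scale, a mean 4.64 times higher in MOELOW (standard error 0.13, adjusted p = 2.3e-05 from limma). Ifih1 encodes MDA5, the sensor of long double-stranded RNA, and read 0.920, 1.0 and 1.29 FPKM in MOELOW. In MOEHIGH it was listed at 0 in passages 90 and 103 and at 0.0082 FPKM in passage 113 (difference -1.04, adjusted p = 0.00012 from limma). Dhx58, whose product LGP2 modulates both sensors, had 0.518, 0.522 and 0.668 FPKM and then 0.398, 0.293 and 0.228 FPKM and was below the filter. Without a filter its difference was -0.27 (adjusted p = 0.017 from limma).

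The ubiquitin-like modifier gene Isg15 had 1 of the largest differences among the members. It read 5.20, 5.93 and 5.08 FPKM in MOELOW and 0.305, 0.437 and 0.0860 FPKM in MOEHIGH, and the MOELOW mean was 19.6 times higher (difference -2.33, standard error 0.14, adjusted p = 5.4e-06 from limma). Its promoter stretch printed above carries 3 overlapping ISRE cores. Usp18, the protease that removes ISG15 from its targets and also dampens type I receptor signalling, read 0.557, 0.630 and 0.606 FPKM and then 0, 0 and 0.0302 FPKM (without a filter, difference -0.66, adjusted p = 2.4e-05 from limma). Trim25, the ubiquitin ligase acting on RIG-I, was nearly level. It read 5.96, 5.52 and 5.55 FPKM and then 6.01, 6.41 and 7.92 FPKM, slightly higher in each MOEHIGH library, with a difference of 0.21 that was not called (95% interval -0.07 to 0.50, adjusted p = 0.18 from limma) and was called with quantile normalization (0.39, adjusted p = 0.012 from limma).

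Effectors that act on RNA held members called lower, called higher and not called. Ifit1, which binds viral RNA lacking host cap marks, read 0.745, 1.13 and 1.11 FPKM in MOELOW, and in MOEHIGH was listed at 0 in passages 90 and 103 and at 0.0296 FPKM in passage 113 (difference -0.98, adjusted p = 0.00024 from limma). Its relative Ifit2 lies near it on chromosome 19 and overlapped between the groups, at 9.30, 8.05 and 6.93 FPKM and 6.44, 6.44 and 9.70 FPKM (difference -0.11, 95% interval -0.51 to 0.30). Of the 413 tested genes of chromosome 19, 273 were higher and 45 lower in MOEHIGH, with a median difference of 0.70.

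The oligoadenylate synthetase-like genes Oasl1 and Oasl2 are adjacent on chromosome 5. Oasl2 read 1.15, 1.34 and 1.90 FPKM and then 0.0367, 0.0565 and 0.0485 FPKM, with a MOELOW mean 31.0 times higher (difference -1.22, standard error 0.13, adjusted p = 0.00014 from limma). Oasl1, a translational repressor of Irf7, read 0.919, 1.49 and 1.75 FPKM and then 0.542, 2.72 and 0.396 FPKM. Passage 103 held the highest Oasl1 value of all 6 libraries while its neighbours in MOEHIGH held the lowest values. The difference of -0.24 had a wide interval, from -1.06 to 0.58, and without passage 103 it was -0.69 (adjusted p = 0.019 from limma). Eif2ak2, the protein kinase PKR that halts translation on double-stranded RNA, was nearly level at 8.90 ± 0.113 and 8.31 ± 0.545 FPKM (SD, n = 3), with a difference of -0.09 (95% interval -0.32 to 0.14).

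Isg20, a nuclease that degrades viral RNA, went the opposite way to most members. It read 9.88, 8.16 and 7.88 FPKM in MOELOW and 38.4, 29.3 and 19.4 FPKM in MOEHIGH. Every MOEHIGH library was well above the MOELOW range, although the 3 differed widely among themselves, and Isg20 rose by 1.59 on the log2 scale (standard error 0.23, adjusted p = 0.00064 from limma). The promoter windows of Irf1 and Isg20, the members that rose, held no ISRE core. Both held TTCNNNGAA, the GAS element bound by STAT dimers, at 90 and 73 bases before the start, as did the windows of 35.3% of members and of 9.55% of all genes with a window. This motif reads the same on both strands, and in Bst2 and Ifitm3 it overlaps an ISRE core. Irf1 and Isg20 each had more than 1 window. Among tested members with a window, 7 of 11 with an ISRE core were lower, and 11 of 16 without one. With the GAS element 4 of 10 were lower, and without it 14 of 17, beside 32.1% of all tested genes. These counts include members that passed the filter only through MOELOW and so had to be lower. All of them lacked the GAS element, so the counts with and without it cannot be compared. Of these members, Isg15, Ifit1, Ifih1 and Gbp2 held an ISRE core, and Irf5, Oasl2 and Xaf1 did not. The share of all tested genes is not divided by motif.

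At the membrane, Ifitm3 had the largest difference of the tested members on the log2(FPKM + 1) scale, though the ratio of group means was larger for Isg15 and Oasl2, and Ifih1 and Ifit1 exceeded it with a pseudocount of 0.01. Ifitm3 encodes a protein that blocks fusion of viruses in endosomes, and its RNA read 245, 209 and 185 FPKM in MOELOW and 17.2, 24.7 and 12.0 FPKM in MOEHIGH. It fell by 3.54 on the log2 scale (95% interval -4.09 to -2.99, adjusted p = 1.1e-05 from limma), a mean 11.8 times higher in MOELOW. Its close homologue Ifitm2, on the same stretch of chromosome 7, read 409, 368 and 377 FPKM and then 245, 261 and 217 FPKM, and fell by 0.68 (standard error 0.11, adjusted p = 0.0015 from limma). In MOEHIGH the mean was 241 FPKM for Ifitm2 and 18.0 FPKM for Ifitm3. The family shares sequence, and how reads common to its genes were assigned is not given in the sources used here. Ifitm1 was listed at 0 in 3 libraries and reached 0.421 FPKM at passage 8.

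Bst2, or tetherin, which holds budding viruses at the cell surface, read 58.2, 47.3 and 43.0 FPKM and then 45.2, 40.6 and 30.2 FPKM. The groups overlapped, and its difference of -0.36 was not called (95% interval -0.76 to 0.05, adjusted p = 0.12 from limma). With libraries scaled to equal totals the difference was -0.42 (adjusted p = 0.022 from limma), and it was -0.19 without passage 113 and -0.24 without passage 8 (adjusted p = 0.25 and 0.34 from limma). Rsad2, the gene of viperin, was low in MOELOW at 0.284, 0.245 and 0.222 FPKM and read 0, 0.0188 and 0.0217 FPKM in MOEHIGH (without a filter, difference -0.30, adjusted p = 0.00027 from limma).

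The interferon-induced GTPases were faint. Gbp2, a guanylate-binding protein strongly induced by type II interferon, was the one member of this group that was tested. It read 2.07, 1.86 and 1.58 FPKM and then 0.228, 0.403 and 0.242 FPKM (difference -1.14, standard error 0.12, adjusted p = 0.00011 from limma). Its neighbours on chromosome 3 were lower still. Gbp3 had 0.480, 0.265 and 0.408 FPKM in MOELOW and was listed at 0 in all MOEHIGH libraries, and Gbp7 had 0.327, 0.409 and 0.343 FPKM and then 0.0273, 0 and 0.00715 FPKM. The classical antiviral GTPase genes were near the lower end of the tables: Mx2 was between 0.169 and 0.215 FPKM in MOELOW and listed at 0 in MOEHIGH, and Mx1 did not exceed 0.0559 FPKM. In the fit without a filter Gbp3 (-0.47), Gbp7 (-0.43) and Mx2 (-0.25) were called lower, with adjusted p-values of 0.0011, 0.00013 and 0.00026 from limma, and Mx1 (-0.05) was not called (adjusted p = 0.10).

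Of the interferon-induced ADP-ribosyltransferases, Parp12 was the most abundant in MOELOW. It read 9.44, 8.71 and 10.1 FPKM and then 2.57, 1.73 and 2.16 FPKM, a mean 4.37 times higher in MOELOW (difference -1.73, standard error 0.13, adjusted p = 2.3e-05 from limma). Parp14 was under the filter at 0.845, 0.731 and 1.04 FPKM and then 0.0698, 0.0846 and 0.153 FPKM, with a MOELOW mean 8.49 times higher (without a filter, difference -0.76, adjusted p = 0.00030 from limma). Parp9, its neighbour on chromosome 16, read 3.68, 4.18 and 4.13 FPKM and then 2.02, 2.92 and 3.34 FPKM. The Parp9 difference of -0.42 just passed (adjusted p = 0.044 from limma), and leaving out any library but that of passage 113 took it over the threshold, with adjusted p-values of 0.071 to 0.13.

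The remaining members include genes of unlike function. Ifi35, which partners with the STAT-interacting protein NMI, fell from 12.0 ± 0.349 to 6.33 ± 0.888 FPKM (SD, n = 3, difference -0.83, standard error 0.12, adjusted p = 0.00070 from limma). Xaf1, a proapoptotic antagonist of the inhibitor XIAP, fell from 0.790 ± 0.189 to 0.257 ± 0.0385 FPKM (difference -0.51, adjusted p = 0.0062 from limma), but was not called with quantile normalization (-0.08, adjusted p = 0.52 from limma). Rtp4 read 0.358, 0.253 and 0.202 FPKM in MOELOW, and in MOEHIGH was listed at 0 except for 0.132 FPKM in passage 103. Ifi44 read 0.288, 0.199 and 0.211 FPKM in MOELOW and was listed at 0 throughout MOEHIGH. Both were called lower without a filter (differences -0.28 and -0.30, adjusted p = 0.014 and 0.00059 from limma).

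**Figure D3:**
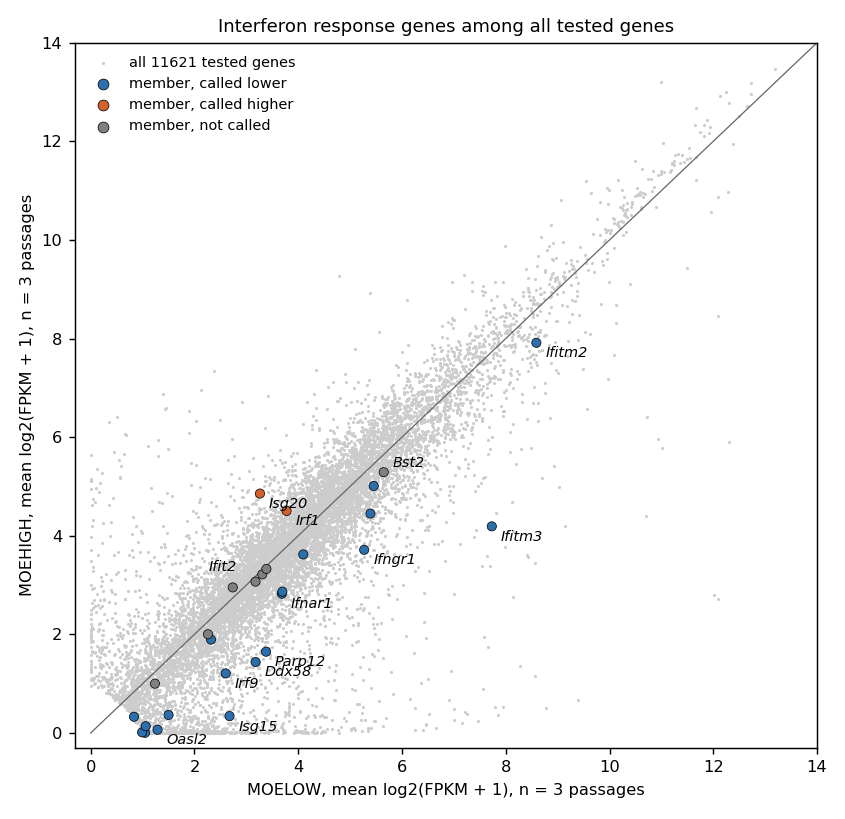
Mean log2(FPKM + 1) of 3 passages in MOELOW (horizontal axis) and MOEHIGH (vertical axis) for all 11621 tested genes in grey, with tested members in blue (called lower), orange (called higher) or dark grey (not called). The line marks equal means. Ifitm3, Isg15, Ddx58 and Parp12 lie far below it and Isg20 and Irf1 above it.

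Summed over the 41 members, FPKM ran from 868 to 983 in MOELOW and from 434 to 523 in MOEHIGH, and Ifitm2 and Ifitm3 made up most of it. The sum of the other 39 ran from 306 to 329 in MOELOW and from 205 to 237 in MOEHIGH. Within MOEHIGH no passage was uniformly highest: of 30 members above 0 in the group, 8 were highest in passage 90, 13 in passage 103 and 9 in passage 113. Passage 103 was the lowest for 2 of the 30, against 16 for passage 90 and 12 for passage 113.

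Other genes of the pathway were taken from lists of 174 genes, 152 of them in the tables and 90 tested, and the lists share 1 gene. Of these 90, 19 were higher in MOEHIGH, 36 were lower and 35 were not called, with a median difference of -0.21, beside 24.3% higher and 32.1% lower among all tested genes. The filter was passed only through MOELOW by 9 of the 90. Quantile normalization gave 25 higher and 28 lower. The list of further interferon-stimulated genes had 50 tested, of which 10 were higher, 22 lower and 18 not called, with a median of -0.23, and 7 of the 50 passed the filter only through MOELOW. Of the 66 genes of that list with a promoter window, 40.9% held an ISRE core.

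The largest fall on that list, on the log2(FPKM + 1) scale, was that of Ly6e, a surface protein that restricts coronavirus entry. It read 38.6, 33.7 and 35.5 FPKM in MOELOW and 0.312, 0.129 and 0.150 FPKM in MOEHIGH (difference -4.95, adjusted p = 1.4e-07 from limma). With a MOEHIGH mean of 0.197 FPKM, Ly6e passed the filter only through MOELOW and so could only be lower. Irgm1, an immunity-related GTPase that controls autophagy, read 75.2, 67.4 and 96.0 FPKM and then 7.60, 9.80 and 10.9 FPKM (difference -2.95, adjusted p = 5.2e-06 from limma). Shisa5, Ube2l6, which is the conjugating enzyme for ISG15, and Trafd1 were also lower, by differences of -1.52, -1.22 and -0.87. In the other direction, Mlkl, the executioner of necroptosis, read 10.9, 13.3 and 11.5 FPKM and then 48.1, 44.7 and 38.3 FPKM (difference 1.79, adjusted p = 1.4e-05 from limma). Slfn9 (1.32), Nampt (1.0), the zinc finger antiviral protein gene Zc3hav1 (0.94) and the galectin gene Lgals9 (0.67) were higher as well.

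Interferon genes themselves were at or near 0. Of 23 ligand genes listed, 19 were in the tables and none reached the filter: all were listed at 0 in MOELOW, and in MOEHIGH Ifne, the epithelial interferon of the reproductive tract, was the exception, with 0.121 FPKM in passage 90 and 0.210 FPKM in passage 113. Signalling genes had 5 of 16 higher and 7 lower, with a median difference of -0.30. Of all tested genes, 24.3% were higher and 32.1% lower. Il10rb, the shared receptor chain encoded between Ifnar2 and Ifnar1, read 20.7, 18.6 and 17.9 FPKM and then 7.77, 7.88 and 7.96 FPKM (difference -1.17, adjusted p = 4.3e-05 from limma). Stat3 read 33.0, 25.8 and 27.2 FPKM and then 7.50, 8.95 and 8.30 FPKM (difference -1.68, adjusted p = 2.0e-05 from limma). Pias3, an inhibitor of STAT3, and the phosphatase genes Ptpn1 and Ptpn11 were lower, with differences of -0.66, -0.57 and -0.41, and that of the kinase gene Jak1 was -0.40 (adjusted p = 0.026 from limma).

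Socs1 and Socs3, suppressors of cytokine signalling that block the Janus kinases, were higher. Socs1 read 5.45, 4.62 and 5.59 FPKM in MOELOW and 28.9, 15.4 and 9.58 FPKM in MOEHIGH (difference 1.48, adjusted p = 0.0060 from limma). Its MOEHIGH values were widely spread, all above MOELOW. Socs3 read 6.56, 3.94 and 4.21 FPKM and then 14.9, 19.7 and 10.5 FPKM (difference 1.42, adjusted p = 0.0016 from limma). Jak2, on chromosome 19, and Irf2bp1 were higher by 0.41 and 0.40. Tyk2, the kinase bound to IFNAR1, was not called (-0.23, adjusted p = 0.22 from limma).

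Among 25 tested genes of nucleic acid and Toll-like sensing, 4 were higher, 8 were lower and 13 were not called, with a median difference of -0.07. The share called lower was near the 32.1% of all tested genes and the share called higher was below their 24.3%, and 2 of the 25 passed the filter only through MOELOW. The DNA sensing adaptor STING, encoded by Tmem173, had the largest difference on that scale. It read 10.2, 8.63 and 9.95 FPKM in MOELOW and 0.586, 0.658 and 0.690 FPKM in MOEHIGH (difference -2.68, adjusted p = 9.4e-07 from limma). Riok3, a kinase that acts on MDA5, was lower as well, with a difference of -0.61. Ddx41 (0.76), Dhx9 (0.46), Mavs (0.34), the adaptor that relays signals from RIG-I and MDA5, and Polr3a (0.31) were higher.

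**Figure D4:**
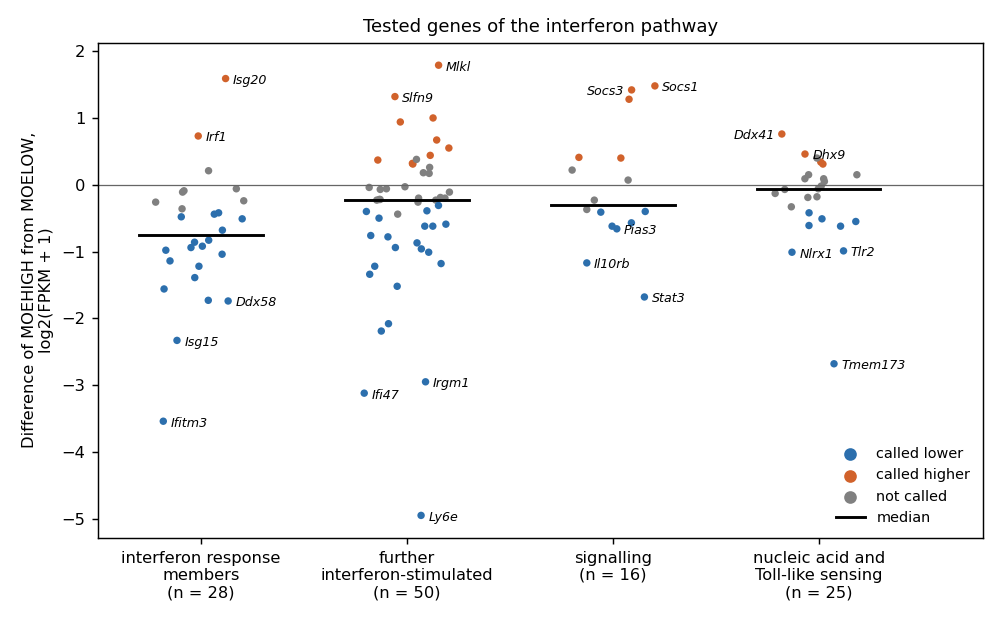
Difference of MOEHIGH from MOELOW in log2(FPKM + 1) for tested members (28), further interferon-stimulated genes (50), signalling genes (16) and sensing genes (25), each point a gene coloured by its call. Black bars are medians, at -0.76, -0.23, -0.30 and -0.07, and the extreme genes of each list are named.

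Markers of other cell types moved between the same groups. The 7 smooth muscle genes summed to 7820 to 11200 FPKM in MOELOW and to 70.5 to 108 FPKM in MOEHIGH. Of these, 6 of 6 tested genes were lower and none was listed at 0, but 2 of the 6 passed the filter only through MOELOW. The 10 fibroblast and stroma genes summed to 596 to 988 FPKM and to 22.4 to 32.7 FPKM, with 6 of 7 tested genes lower. Of those 7, 4 passed the filter only through MOELOW and so could only be lower. Postn, Thy1, Fap and Lum were listed at 0 in MOEHIGH. The 8 endothelial genes summed to 4.88 to 5.71 FPKM and to 0.171 to 0.238 FPKM, while Cdh5, Tie1 and Vwf were listed at 0 in every library. The part of these cell types in the differences of the interferon response genes was not tested. Leukocyte genes, 20 in all, summed to 65.3 to 102 FPKM and to 36.4 to 54.3 FPKM, most of it Cd14. Of the 4 tested, Csf1r and Mrc1 were higher and Cd14 lower. The T cell gene Cd3e, the myeloid genes Itgam and Emr1 and the plasmacytoid gene Siglech were listed at 0 in all 6 libraries, and Ptprc did not exceed 0.133 FPKM. The 4 ciliated cell genes summed to 1.40 to 1.86 FPKM in MOELOW and 3.78 to 4.47 FPKM in MOEHIGH, with 1 of 2 tested genes higher. Of 8 tested epithelial genes, 3 were higher, 1 was lower and 4 were not called. Over all tested genes the shares were 32.1% lower and 24.3% higher.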

How the data were processed

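Ribosome-depleted total RNA of 6 libraries, 3 per group, was sequenced by the authors, aligned to mm10 with TopHat2 2.0.8b and summarised over UCSC gene annotation with Cufflinks and Cuffdiff 2.1.1, as named in the methods and the submitters' processing notes. The deposited values are FPKM per gene. Read counts were not used here, so depth in absolute terms is unknown, and the use of strand and of reads shared between genes is not given in the sources used here. Headings of the value columns named another passage or a locus, and each library was therefore taken from its sample record. Of 23141 entries per library, 577 shared 236 symbols, of which only the highest on average was used.

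MOEHIGH was compared with MOELOW in limma 3.58.1 (R 4.3.3) on log2(FPKM + 1), with a variance trend and no block, for genes averaging 0.5 FPKM or more. The threshold was a Benjamini-Hochberg adjusted p of 0.05. Intervals are 95% intervals of limma. Summaries used Python 3.11.15. The fit was tested on simulated data. All members were reported. From each other pathway list, up to 5 called genes with the largest difference in each direction and a mean of at least 5 FPKM were named, and every ligand above 0.5 FPKM. Tyk2, Jak1 and Ifne were named outside this rule, after their values were seen, and values of a few listed genes are left out. The members and lists were chosen with earlier results of these data known. The marker lists were epithelium, ciliated cell, leukocyte, fibroblast and stroma, smooth muscle and endothelium. Positions and promoter windows were from RefSeq (GRCm38.p6), matched by symbol or synonym. Because 79.8% of tested genes had a window, calls over all tested genes were not divided by motif, and only those of members were. The alternatives tried were equal totals, median ratios and quantile normalization, pseudocounts of 0.1 or 0.01, omitting the filter or raising it to 5 FPKM, a threshold of 0.01, testing for more than a 2-fold change, blocking on the replicate number, and omitting 1 library at a time.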

Additional observations from a re-analysis of the deposited data

How the results depend on the processing

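Of 426 member values recomputed under the alternatives, 380 kept their direction and call, 34 lost the call, 4 gained it and 8, all of uncalled members, changed sign. Ddx58, Ifitm3, Ifngr1, Irf9, Isg15 and Parp12 kept both in every alternative that could be run for them. Ifngr2 lost its call in 8 of 16 alternatives and Parp9 in 12 of 15. Differences of low members depended on the pseudocount: from a pseudocount of 1 to 0.01 they went from -1.04 to -6.45 for Ifih1, -0.98 to -5.97 for Ifit1, -1.22 to -4.67 for Oasl2, -2.33 to -4.50 for Isg15, -0.92 to -3.62 for Irf5, -1.14 to -2.66 for Gbp2 and -0.51 to -1.57 for Xaf1, all still called. The sign changed with quantile normalization for Stat2 (0.06), Irf2 (0.07), Ifit2 (0.04), Oasl1 (0.22) and Eif2ak2 (0.05), for Irf2 also without passage 90 (0.00) or passage 10 (0.02), and for Oasl1 without passage 113 (0.02). Without passage 103 the difference of Oasl1 was -0.69 and was called.

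With a mean of at least 5 FPKM, 9 members and 16 other pathway genes were lower, since fewer genes were tested. Against a 2-fold change, 0 members were higher and 6 lower, and 1 other pathway gene was higher and 8 lower, beside 303 higher and 907 lower of all genes. The 19 other pathway genes called higher became 10 with libraries scaled to equal totals and 10 at an adjusted p of 0.01. Leaving out 1 library gave 2 higher members each time, 13 to 21 lower members, 12 to 19 higher and 26 to 44 lower other pathway genes, and the lowest count of higher genes, 12, came without passage 8 or passage 10. Members near the filter, such as Ifit1 and Xaf1, were no longer tested in some of these fits. The median of all tested genes was -0.11 with equal totals and 0.10 with quantile normalization.

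Same-numbered libraries of the groups did not deviate together (correlations of -0.02, -0.15 and 0.12 across genes), so the numbers only name libraries. A fit with the replicate block gave 2 higher and 20 lower members, Bst2 being the added call (adjusted p = 0.024 from limma), and 17 higher and 36 lower other pathway genes. Depth could not be stated, so a gene listed at 0 may lie below detection.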
